A study of Mus musculus with 15 samples.

Results

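The genes described here encode the proteasome and its direct regulators. They are the 38 genes of the deposited bulk RNA-seq table whose symbols start with Psma, Psmb, Psmc, Psmd, Psme, Psmf or Psmg followed by a digit, of 8059 listed genes. The study followed muscle stem cells of the mouse, the satellite cells that lie on muscle fibres and rebuild muscle after damage, while muscle was taken apart into single cells. The T0 group came from intact tissue and the T15, T30, T60, T90 and T120 groups from dissociated tissue, and all 6 groups, the intact one included, were fixed. The labels give no unit for the times, which were read as minutes, and name PFA as the fixative and collagenase with dispase as the dissociating enzymes. The sources used here do not give the strain, genotype, age or sex of the mice, or how cells for bulk RNA were sorted. There were 22 libraries, named by the letters of the table: 3 for T30, 3 for T90 and 4 for each of the other times. Nothing in the labels says that the libraries of a time point came from separate animals, so the p-values measure the spread between these libraries, which may be technical.

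The proteasome is the protease that degrades most short-lived and misfolded proteins of the cytosol and nucleus, usually after ubiquitin has been attached to them. Its 20S core is a barrel of alpha and beta rings with the proteolytic sites inside, on beta subunits. The 19S particle that caps the core binds ubiquitin chains, removes them and unfolds the substrate with a ring of ATPases. Other caps, the PA28 and PA200 activators, open the core without ubiquitin, and dedicated chaperones build the parts. Cells that lose proteasome activity raise many of the subunit genes together through the transcription factor encoded by Nfe2l1, and the related factor encoded by Nfe2l2 acts on antioxidant response elements. Muscle stem cells need proteasome activity to survive and proliferate.

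The 38 genes comprised 7 alpha subunits, 4 non-catalytic beta subunits, 2 standard catalytic beta subunits, 6 ATPases, 3 other subunits of the 19S base and 8 subunits of the 19S lid. The others were 2 chaperones of 19S assembly, 4 activators or regulators and 2 chaperones of 20S assembly. All 38 are annotated as protein coding and all passed the filter on low counts. The reference lists 49 genes with such names, and the other 11, which include the catalytic Psmb5 and the immunoproteasome subunits Psmb8, Psmb9 and Psmb10, were not analysed here. Named pseudogenes exist for Psmb6 and Psmb7, so the counts of both are uncertain to that extent. Exons of 9 of the 38 genes overlap those of another gene, most in Psmd9 (25.5% of its exon length) and Psmb7 (11.8%). The sources used here do not say whether counting used strand, so reads of overlapping genes cannot be told apart.

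Promoter windows of RefSeq (build GRCm38.p6, from 250 bases before to 50 after the start) were found for 32 of the 38 genes, not for Psmb1, Psmb2, Psmb7, Psmc3, Psmd3 and Psmd7. Among the 7 motifs searched on both strands, the ETS core CCGGAAG, which binds factors of the ETS family, was found for 13 of 32 genes (40.6%) and in 8.86% of all 32851 windows. The 32 genes had 34 windows, of which 41.2% held it. The letters were found in 7 of the 16 genes that rose at T120 and in 6 of the 16 that did not. The sequences below show this core in capitals, read 5′ to 3′ along each gene's own strand, and the group was chosen after these shares were seen. The first 5 genes rose at T120, and the last 2 were not called against T0 at any single time. Of these 2, Psmc2 was called in a joint F test over all times and from T60 to T120, and Psmg1 in neither. The windows end before the annotated transcripts.
Psmd11, chr11:80428579-80428614, plus strand: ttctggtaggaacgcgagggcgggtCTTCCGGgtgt
Psme3, chr11:101316081-101316137, plus strand: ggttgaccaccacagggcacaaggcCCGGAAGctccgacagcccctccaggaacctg
Psmc6, chr14:45329699-45329755, plus strand: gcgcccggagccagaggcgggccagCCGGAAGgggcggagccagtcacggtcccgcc
Psmd2, chr16:20651601-20651651, plus strand: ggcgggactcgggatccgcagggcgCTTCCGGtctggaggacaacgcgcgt
Psmd4, chr3:95042708-95042764, minus strand: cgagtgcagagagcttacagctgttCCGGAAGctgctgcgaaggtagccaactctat
Psmc2, chr5:21785166-21785222, plus strand: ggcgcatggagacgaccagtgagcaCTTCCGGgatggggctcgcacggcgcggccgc
Psmg1, chr16:95990998-95991054, minus strand: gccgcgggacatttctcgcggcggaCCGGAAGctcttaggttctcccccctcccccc

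The antioxidant response element core TGACNNNGC, the letters to which Nfe2l1 and Nfe2l2 bind, was found for 5 of the 32 genes (15.6%) and in 12.4% of all windows. It was present in 4 of the 16 genes that rose at T120 (Psmb6, Psmc6, Psmd12 and Psme4) and in 1 of the other 16 (Psmd9). It is shown in capitals for Psmb6 and Psmc6, a modest and a larger riser, where it lies outside annotated transcripts.
Psmb6, chr11:70525323-70525356, plus strand: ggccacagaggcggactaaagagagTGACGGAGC
Psmc6, chr14:45329574-45329630, plus strand: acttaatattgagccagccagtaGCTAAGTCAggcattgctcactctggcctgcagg
Of the other motifs, the GC box GGGCGG was found for 62.5% of the genes and in 35.7% of all windows, and the NRF1 site for 21.9% and in 6.23%. The CCAAT box was found for 34.4% of the genes against 37.4% of windows, and the E-box CACGTG for 9.38% against 7.15%. The heat shock element was found for 0 of the 32 genes and in 0.603% of all windows. These are matches of letters within a short window, given as a description with no test.

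Levels are CPM, counts over listed genes scaled to a common library total with TMM factors that set most genes as unchanged. Fold changes are log2 with a standard error (SE), and a gene was called where the Benjamini-Hochberg adjusted p of edgeR's quasi-likelihood test over all 8059 genes was under 0.05. Column totals were 2974294 to 10482407 counts in the libraries up to T30 and 8647622 to 27826437 in those from T60. In the early libraries 8 long genes of other tissues, such as the epithelial mucin gene Muc16, had more counts per exon length. That density, in CPM per kb, averaged 2.39 for T0, 1.5 for T15 and 4.2 for T30, against 0.257, 0.313 and 0.532 for T60, T90 and T120. These 8 genes were chosen after looking at candidates' densities, and the density was used to subtract a background in one alternative analysis. Of the satellite cell markers all 10 were listed. Pax7, which defines these cells, was at 1344 ± 203 CPM at T0 and 377 ± 80.8 at T120 (SD, n = 4). The markers did not move as a set: at T120 Itga7, Cxcr4 and Sdc4 were up, 5 including Pax7 were down and 2 were not called. Markers of other cells were also listed: 6 of 11 endothelial, 6 of 10 fibro-adipogenic, 6 of 8 smooth muscle and pericyte, 7 of 14 myofibre, 1 of 16 immune (Cd68), 1 of 5 glial and 0 of 5 erythroid. In bulk RNA, fewer cells of a type and less RNA per cell cannot be told apart.

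In the first 30 minutes 1 proteasome gene was called. At T15 edgeR called 0 of 38 genes in either direction (0.658% of all genes were up and 0.0124% down), 0 had an unadjusted p under 0.05, and DESeq2 and limma-voom also called 0. The median log2 change was -0.07 against 0.01 over all genes. At T30 (3.66% of all genes up and 1.34% down) the single call was Psma5, an alpha subunit, which fell by 0.64 ± 0.18 (SE; edgeR adjusted p = 0.0491), from 13.5 ± 1.78 to 8.57 ± 1.54 CPM (SD, n = 4 and 3). The median member stood at -0.23 at T30 and the median gene at -0.01. Without T30A the median member was at -0.12, without T30B at -0.25 and without T30C at -0.29. Without the 5 libraries of highest background density, which include T30A and T30B, it was at -0.05 and the median gene at 0.01. The CPM of 10 members lay below that of every T0 library at T30 (8.85% of all genes did), and that of 0 members lay above (8.43%). The Psma5 call was lost with DESeq2, limma-voom and most other analyses, so no member's change by T30 held under all of them.

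From T60 members were called in both directions. At T60, 8 members were up (21.1%, against 27.9% of all genes) and 5 were down (13.2%, against 28.3%). At T90, 15 were up and 5 down (background 33.8% and 35%), and at T120, 19 were up and 4 down, which is 50.0% and 10.5% of members against 37.3% and 39.5% of all genes. The 23 called members at T120 are 60.5% of the family, below the 76.8% of all genes called in either direction. The median member moved from -0.08 at T60 to 0.06 at T90 and 0.34 at T120, while the median gene moved from -0.03 to -0.05 and -0.08. A joint F test over all times called 31 of 38 members (85.7% of all genes). Those it did not call were Psma1, Psma7, Psmb1, Psmd13, Psmd14, Psmg1 and Psmg4. The ranges of the T0 and T120 libraries did not overlap for 17 members that were higher and 4 that were lower (34.9% and 36.5% of all genes). These comparisons share the T0 libraries and are not independent of one another.

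**Figure D1:**
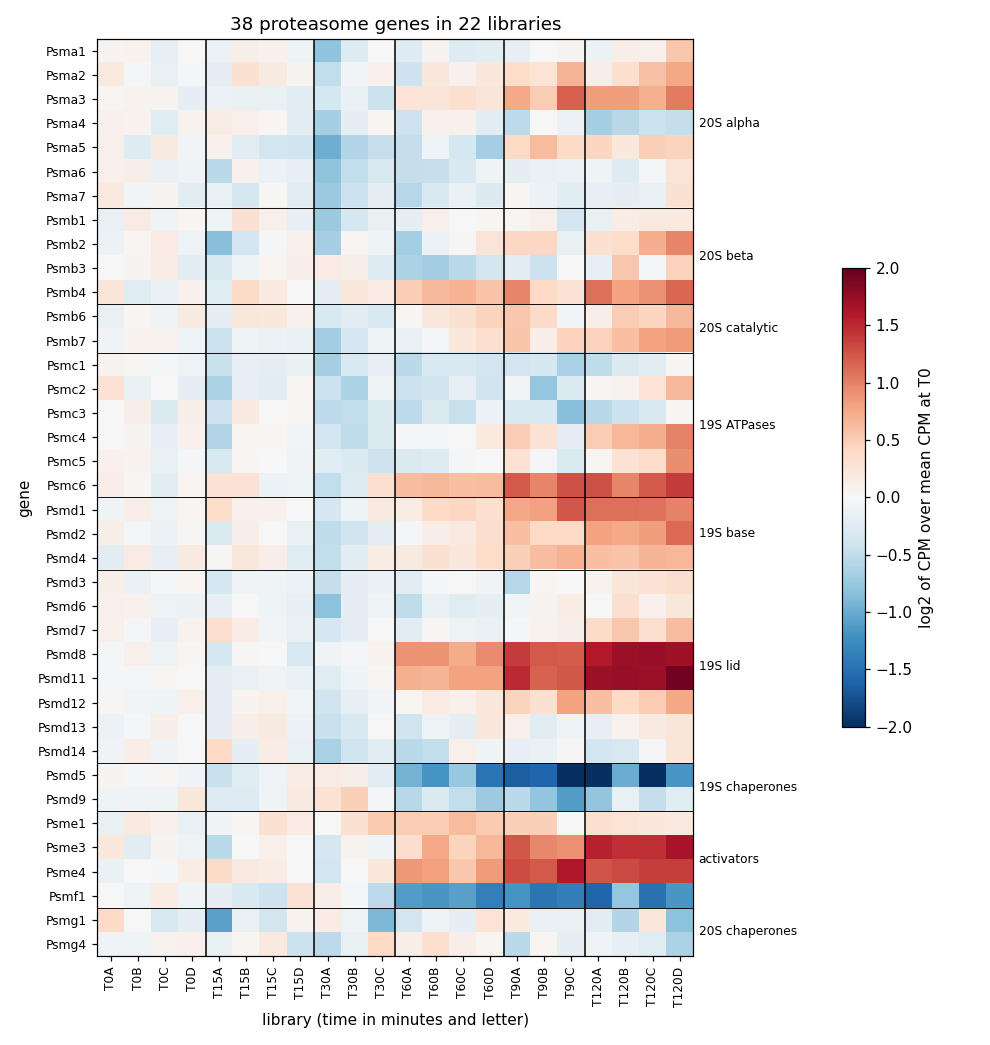
Each cell is the log2 ratio of a gene's CPM in 1 library (columns, by time in minutes and letter) to its mean CPM at T0, for 38 genes (lines of the map, grouped by role), with colours that saturate at the ends of the scale. Most 19S genes turn red from T60 to T120, while Psmd5 and Psmf1 turn blue from T60 and Psmd13 stays pale.

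Scaling moved these counts. With upper quartile factors in place of TMM the median of all genes at T120 shifted to -0.43 and the median member to -0.02, so the gap between them was 0.41, against 0.42 with TMM. With those factors 12 members were up and 11 down at T120, 5 up and 18 down at T60, and 7 up and 17 down at T90. Of all 8059 genes, 2140 were then up and 4154 down at T120, 1484 and 3727 at T60, and 1873 and 4081 at T90. The share of all called genes that were up at T120 was 34.0% with upper quartile factors and 48.5% with TMM. After the background was subtracted, 12 members were up and 4 down at T120 and 4 up and 6 down at T60. Of all 8051 genes then kept, 2585 were up and 2393 down at T120, and 1643 up and 1358 down at T60. The median member then stood at 0.24 at T120 and the median gene at 0.02, a smaller gap of 0.22. The 11 members Psma3, Psmb4, Psmc4, Psmc6, Psmd1, Psmd2, Psmd4, Psmd8, Psmd11, Psme3 and Psme4 were up at T120 under each of 31 alternative analyses, and Psma4 was down under each. At T60 the members up under all 31 were Psmc6, Psmd8, Psmd11 and Psme4, with 0 down under all.

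The alpha subunits form the outer rings of the core and its gate. None of the 7 was called at T60, and at T120 Psma2, Psma3 and Psma5 were up and Psma4 was down. Psma3 rose by 0.86 ± 0.13 (edgeR adjusted p = 2.57e-06), from 28.0 ± 2.37 to 50.8 ± 4.85 CPM (SD, n = 4 each), with no overlap between the T0 and T120 libraries. Psma2 rose by 0.47 ± 0.17 and Psma5 by 0.4 ± 0.16, and neither call held with upper quartile factors (0.11 and 0.03) or after background subtraction (0.64 and 0.35). Without T120D the Psma2 value was 0.39 (adjusted p = 0.0599), and the Psma5 value was 0.34 without T0B, 0.38 without T0D and 0.37 without T120C (adjusted p = 0.0885, 0.0699 and 0.0686). Psma1, Psma6 and Psma7 were within 0.19 of their T0 level on the log2 scale at T120.

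Psma4 (chr9:54950790-54958030, mm10) was the alpha subunit that went the other way. In the libraries A to D it was at 81.9, 81.0, 65.4 and 80.7 CPM at T0, 85.9, 82.8, 79.3 and 66.4 at T15, and 48.9, 68.4 and 79.1 at T30. It was at 57.8, 82.0, 81.9 and 66.8 CPM at T60, 53.8, 78.0 and 71.2 at T90, and 48.6, 52.7, 57.2 and 55.5 at T120. The T120 libraries were close together and all below the lowest T0 library, while T30, T60 and T90 each overlapped the T0 range. The fall at T120 was 0.53 ± 0.15 (edgeR adjusted p = 0.00265), and from T60 to T120 the gene fell by 0.43 ± 0.15 (adjusted p = 0.0152). The second of these calls was lost without T60B, T60C or T120A (log2 change -0.36, -0.33 and -0.35, adjusted p = 0.0571, 0.0863 and 0.0751).

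Among the non-catalytic beta subunits, Psmb4 rose early and Psmb2 late. Psmb4 was up at T60 by 0.6 ± 0.16 and at T120 by 1.0 ± 0.16 (edgeR adjusted p = 0.00332 and 1.04e-05), from 23.8 ± 3.52 to 47.6 ± 5.18 CPM. Psmb2 was up at T120 by 0.63 ± 0.23 (adjusted p = 0.0166), a call that was lost with upper quartile factors (0.27), after background subtraction (0.47) and without library T120D (0.51, adjusted p = 0.0561). The Psmb4 call at T60 was lost with upper quartile factors (0.34) and after background subtraction (0.48). Psmb3 was down at T60 (log2 change -0.55 ± 0.17, adjusted p = 0.0098; after background subtraction adjusted p = 0.0572) and stood at 22.9 ± 5.37 CPM at T120 against 19.4 ± 2.02 at T0. It then rose by 0.79 ± 0.17 from T60 to T120 (adjusted p = 0.000406). Psmb1 went from 56.1 ± 5.28 to 60.3 ± 6.32 CPM and was not called against T0 at any time.

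The 2 listed standard catalytic subunits were both up at T120. The log2 change of Psmb7 was above, and that of Psmb6 slightly below, the median of the 19S genes (0.47). Psmb7 (chr2:38588036-38644087) carries the trypsin-like site. It was at 30.5, 33.4, 33.5 and 30.2 CPM at T0, 23.6, 30.2, 29.3 and 28.9 at T15 and 19.7, 25.4 and 30 at T30. It was at 28.9, 31.5, 36.9 and 40.1 CPM at T60, 46.8, 34.9 and 44.0 at T90, and 43.8, 48.2, 55.9 and 57.4 at T120. The T120 libraries were all above the T0 libraries, and those of T60 overlapped them. The rise at T120 was 0.69 ± 0.14 (edgeR adjusted p = 0.000167). After background subtraction its value was 0.73 with adjusted p = 0.189. The log2 change at T60 was 0.11 ± 0.14 (adjusted p = 0.535).

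Psmb6 (chr11:70525367-70527858), with the caspase-like site, changed less. It was at 42.5, 48.3, 44.4 and 53.7 CPM at T0, 41.2, 55, 54.6 and 50.2 at T15 and 38.1, 40.2 and 38.1 at T30. It was at 47.8, 55.2, 58.1 and 64.4 CPM at T60, 68.9, 61.3 and 45.4 at T90 and 52.0, 67.5, 63.7 and 73.9 at T120. Library T120A was below the highest T0 library, so the groups overlapped. The rise at T120 was 0.44 ± 0.14 (edgeR adjusted p = 0.00641), and it was 0.09 with upper quartile factors (adjusted p = 0.577) and 0.23 after background subtraction (adjusted p = 0.265). It was 0.39 without the 5 libraries of highest background (adjusted p = 0.0741). At T60 the log2 change was 0.25 ± 0.14 (adjusted p = 0.125), and it turned to -0.01 with upper quartile factors and -0.02 after background subtraction.

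Of 17 listed 19S subunits 10 were up at T120 and 0 down, with a median log2 change of 0.47, and of 13 core subunits 7 were up and 1 down, with a median of 0.40, beside 37.3% of all genes up. The order of the medians was not the same at other times: at T90 the 19S median was 0.06 and the core median 0.25, and at T60 both were -0.08. Between T60 and T120, 13 of 17 and 8 of 13 rose, beside 28.4% of all genes. The difference between the groups of genes was not tested. Per kb of exon, the median level over the 19S genes was 18 CPM at T0 and 35.0 at T120, and that over the core genes 12.2 and 15. Each median was taken anew at each time and falls on different genes, so it is not the change of a gene. The highest 19S level per kb was 4.77 times the lowest at T0 and 6.88 times at T120, while in the core that ratio was 4.56 at T0 and 3.46 at T120.

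**Figure D2:**
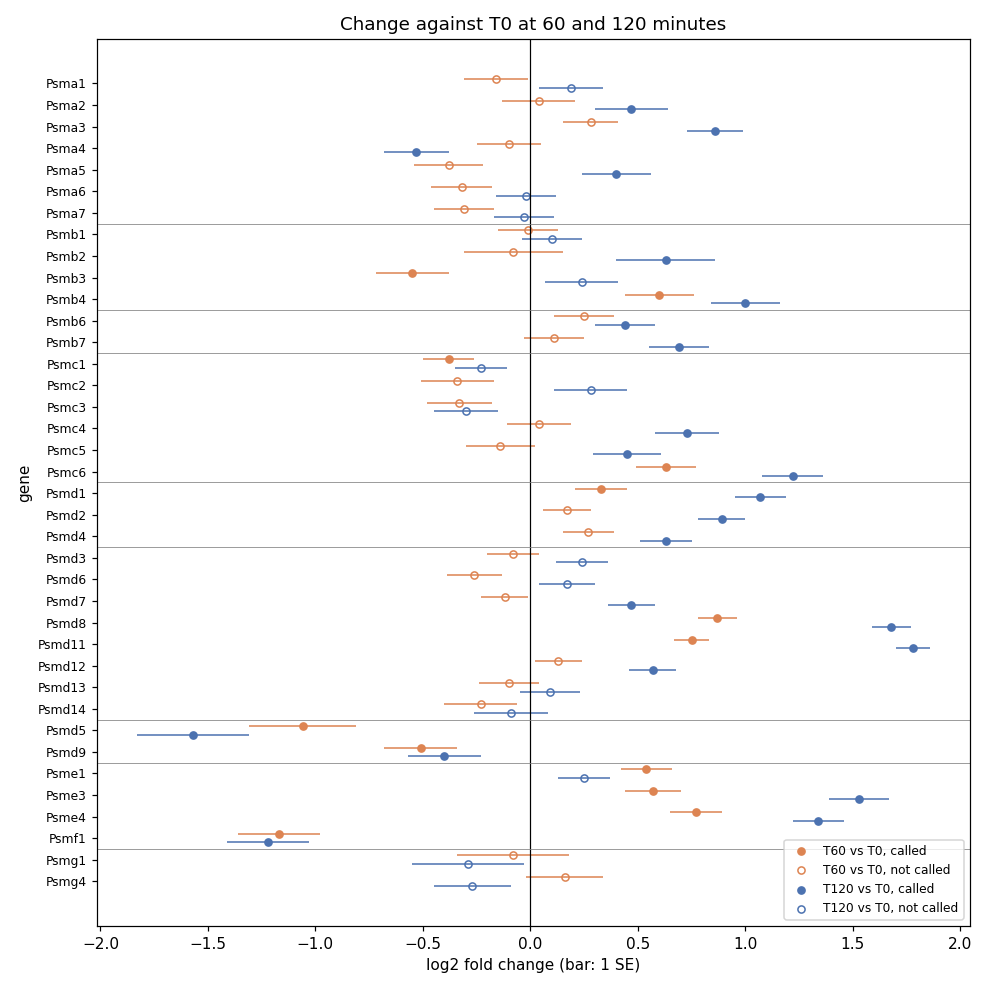
Points are log2 fold changes against T0 (horizontal axis) of 38 genes grouped by role (vertical axis), at 60 minutes in orange and 120 minutes in blue, with bars of 1 SE and filled points for adjusted p under 0.05. Psmd11 at 1.78 and Psmd8 at 1.68 are the highest at T120, and Psmd5 at -1.57 and Psmf1 at -1.22 the lowest.

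The ATPases unfold substrates and thread them into the core. Psmc6, Psmc4 and Psmc5 were up at T120, by 1.22 ± 0.14, 0.73 ± 0.15 and 0.45 ± 0.16 (edgeR adjusted p = 1.46e-07, 0.000136 and 0.0142). The Psmc5 call did not hold with upper quartile factors (0.09), after background subtraction (0.18) or without library T120D (0.27, adjusted p = 0.0817). Psmc1, Psmc2 and Psmc3 were not called at T120 against T0. Psmc2 was up from T60 to T120 (0.63 ± 0.17, edgeR adjusted p = 0.0036), a call that did not hold under all 31 alternatives. Psmc1 was down at T60 (log2 change -0.38 ± 0.12, adjusted p = 0.0115, and -0.31 with adjusted p = 0.0559 without T60A) and at T90 (-0.45 ± 0.13, adjusted p = 0.00424). Psmc3 had the highest 19S level per kb at T0, 46.0 CPM per kb. It was down at T90 (log2 change -0.47 ± 0.16, adjusted p = 0.0159, and -0.33 with adjusted p = 0.0941 without T90C) and stood at 37.4 CPM per kb at T120.

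Psmc6 (chr14:45329788-45349705) was the first ATPase gene to rise. It was at 69.2, 64.2, 54.5 and 64.5 CPM at T0, 76.8, 77.0, 58.3 and 58.7 at T15 and 44.9, 52.6 and 79.0 at T30. At T60 it was at 96.5, 100.2, 95.7 and 97.6 CPM, at T90 at 147, 124 and 152 and at T120 at 152, 124, 148 and 166. The T60 libraries were all above those of T0, T15 and T30, and those of T90 and T120 were higher again. The change at T60 was 0.63 ± 0.14 (edgeR adjusted p = 0.000902).

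The base subunits that are no ATPases all rose. Psmd1 and Psmd2 encode the large scaffolds of the base and Psmd4 a ubiquitin receptor. Psmd2 rose by 0.89 ± 0.11 at T120 and Psmd4 by 0.63 ± 0.12 (edgeR adjusted p = 2.7e-07 and 0.000118), from 99.0 ± 6.47 to 183 ± 22.7 and from 128 ± 18.6 to 198 ± 6.88 CPM. Psmd4 had the highest 19S level per kb at T120 (70.7 CPM per kb).

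Psmd1 (chr1:86064387-86139151) was at 97.1, 113, 96.9 and 106 CPM at T0, 133, 109, 109 and 103 at T15 and 81.3, 97.3 and 117 at T30. It was at 115, 136, 137 and 131 CPM at T60, 176, 183 and 245 at T90 and 221, 221, 218 and 205 at T120. The T60 libraries lay just above those of T0, and all libraries of T90 and T120 above all earlier ones. The rise at T60 was 0.33 ± 0.12 (edgeR adjusted p = 0.0226) and was 0.07 with upper quartile factors (adjusted p = 0.593) and 0.18 after background subtraction. Without T0A, T0C, T60B or T60C it was 0.29 to 0.31 (adjusted p = 0.0584 to 0.0674). The rise at T120 was 1.07 ± 0.12 (adjusted p = 6.78e-08).

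The lid, which removes ubiquitin chains, held both the steepest risers of the family and genes that no test called. Psmd8, Psmd11, Psmd12 and Psmd7 were up at T120, and Psmd3, Psmd6, Psmd13 and Psmd14 were not called at that time. Psmd3 and Psmd6 were up from T60 to T120 (0.31 ± 0.12 and 0.44 ± 0.13, edgeR adjusted p = 0.0259 and 0.00624). Neither call held under all 31 alternatives. Psmd11 encodes the lid subunit that clamps the 19S particle to the core, and Psmd8 a subunit added last in lid assembly.

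Psmd11 (chr11:80428615-80473248) was at 62.9, 62.6, 65.9 and 64.3 CPM at T0, 55.6, 57.8, 61.1 and 58.2 at T15 and 54.0, 60.4 and 65.3 at T30. It was at 105, 102, 112 and 112 CPM at T60, 179, 145 and 152 at T90 and 211, 213, 209 and 244 at T120. Each of T60, T90 and T120 lay above all libraries of the earlier times. The log2 change was 0.75 ± 0.08 at T60, 1.31 ± 0.09 at T90 and 1.78 ± 0.08 at T120 (edgeR adjusted p = 1.87e-07, 6.91e-11 and 5.64e-13), a 3.43-fold rise by T120. In the authors' deposited table the log2 change at T120 is 1.82.

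Psmd8 (chr7:29174188-29180701) followed the same course. It was at 51.7, 56.9, 49.4 and 55 CPM at T0, 41.9, 54.4, 52.8 and 42.8 at T15 and 50.0, 52.4 and 56.1 at T30. It was at 99.2, 98.8, 89.0 and 103 CPM at T60, 141, 124 and 123 at T90 and 160.2, 175, 179 and 173 at T120. Here too the ranges of T60, T90 and T120 did not touch those of any earlier time. The log2 change was 0.87 ± 0.09 at T60 and 1.68 ± 0.09 at T120 (edgeR adjusted p = 1.14e-07 and 3.01e-12), a 3.21-fold rise.

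Psmd12, a scaffold subunit of the lid, rose by 0.57 ± 0.11 at T120, and Psmd7, the partner of the deubiquitinase, by 0.47 ± 0.11 (edgeR adjusted p = 8.85e-05 and 0.000464). With upper quartile factors these values were 0.21 and 0.11, and neither passed. Psmd14, the deubiquitinase itself, was at 31.2 ± 2.12 CPM at T0 and 29.2 ± 5.99 at T120, and Psmd13 at 32.6 ± 2.3 and 34.7 ± 4.12. Neither was called by edgeR in any comparison.

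**Figure D3:**
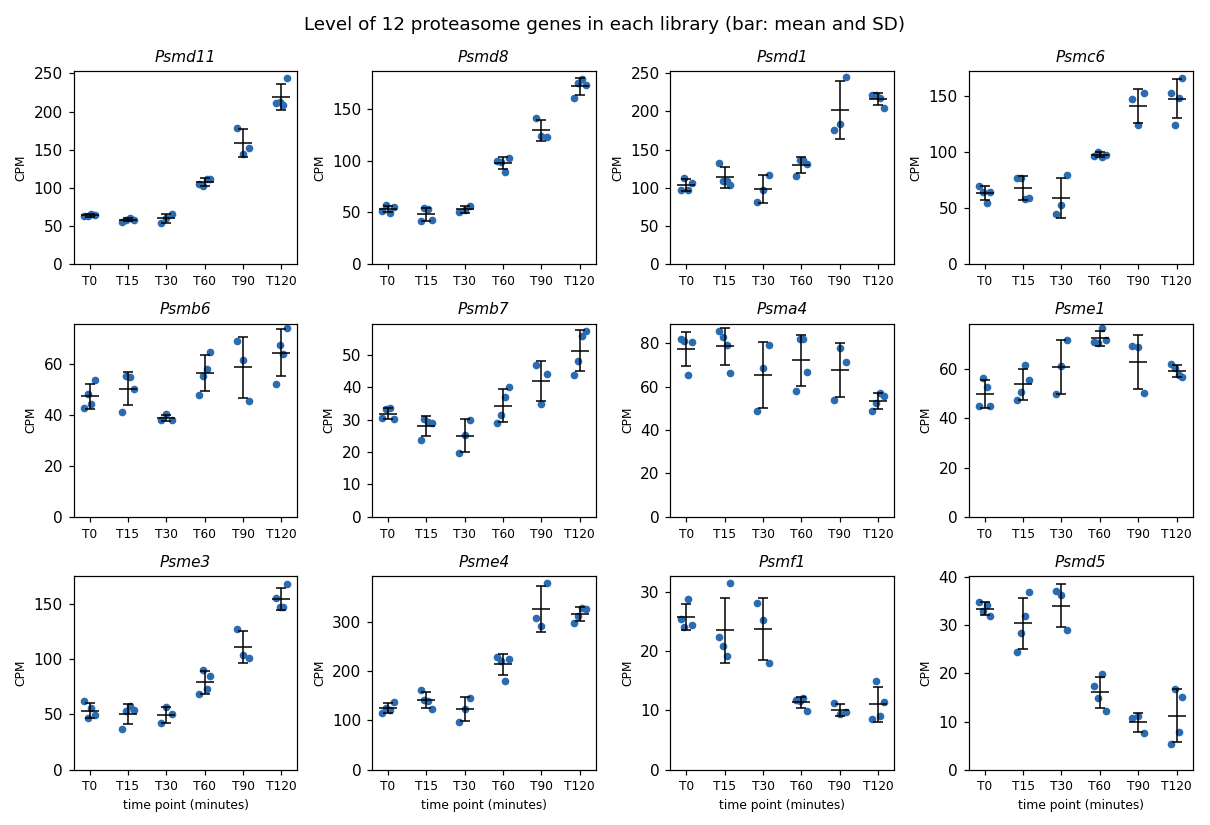
Each panel plots the CPM of 1 gene (vertical axis from 0) in every library at each time in minutes (horizontal axis), with points for libraries and a bar for the mean and SD of 3 or 4 libraries. Psmd11 climbs to between 209 and 244 CPM at T120 from 62.6 to 65.9 at T0, while Psma4 and Psmd5 end below their T0 libraries.

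The activators divided by type. Psme3 encodes the nuclear PA28 gamma and Psme4 the PA200 activator, which acts in chromatin and in sperm. Both rose at T60 and further by T120. Psme1 encodes one subunit of the PA28 activator of antigen processing, which interferon raises together with the immunoproteasome. It was highest at T60.

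Psme3 (chr11:101316213-101323537) was at 62.1, 46.4, 55.6 and 49.6 CPM at T0, 36.9, 53.0, 57.1 and 53.6 at T15 and 42.1, 56.2 and 50.3 at T30. It was at 67.9, 90.2, 72.6 and 85.0 CPM at T60, 127, 104 and 101 at T90 and 155, 147, 147 and 168 at T120. The libraries of T60, T90 and T120 formed 3 steps with no overlap. The log2 change was 0.57 ± 0.13 at T60 and 1.53 ± 0.14 at T120 (edgeR adjusted p = 0.00126 and 2.3e-09). The call at T60 was lost with upper quartile factors (0.3, adjusted p = 0.0631) and after background subtraction (0.32, adjusted p = 0.184).

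Psme4 (chr11:30771726-30880361) was at 114, 126, 121 and 138 CPM at T0, 162, 141, 139 and 124 at T15 and 97, 124 and 146 at T30. It was at 228, 221, 180.3 and 224 CPM at T60, 307, 292 and 378 at T90 and 298, 312, 327 and 325 at T120. All libraries from T60 on were above all earlier ones, and T90 and T120 overlapped. The log2 change was 0.77 ± 0.12 at T60, 1.38 ± 0.13 at T90 and 1.34 ± 0.12 at T120 (edgeR adjusted p = 1.74e-05, 8.59e-09 and 3.42e-09).

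Psme1 (chr14:55578123-55581529) was at 44.8, 56.2, 52.8 and 45.0 CPM at T0, 47.3, 50.5, 61.5 and 55.6 at T15 and 49.8, 61.2 and 71.5 at T30. It was at 70.7, 70.5, 76.7 and 71.5 CPM at T60, 69.2, 68.8 and 50.2 at T90 and 61.8, 60.3, 57.4 and 56.5 at T120. The T120 libraries lay between those of T0 and T60 and overlapped neither. The rise at T60 was 0.54 ± 0.12 (edgeR adjusted p = 0.000754), and it was 0.28 after background subtraction (adjusted p = 0.146). From T60 to T120 the log2 change was -0.3 ± 0.12 (adjusted p = 0.0388), a call that was lost with DESeq2 (-0.25) and without any 1 of the T60 or T120 libraries, T0B, T15A, T15C or T90A (-0.24 to -0.30). Against T0 the T120 value was 0.25 ± 0.12 (adjusted p = 0.069) and turned to -0.11 with upper quartile factors.

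Of the 4 genes that were down at T120, Psma4 encodes a structural subunit and Psmd5, Psmd9 and Psmf1 do not. Psmd5 and Psmd9 encode chaperones that assemble the 19S base, and Psmf1 encodes PI31, a protein that binds the core and was first described as an inhibitor. Their exon lengths are among the longest of the family and their levels per kb the lowest, 4.63, 4.04 and 3.98 CPM per kb at T0. The density over long genes of other tissues, 2.39 CPM per kb at T0, corresponds to 51.5%, 59.0% and 59.9% of those levels. At T30 the density corresponds to 89.1%, 86.7% and 114.0% of their levels, so for Psmf1 the estimate exceeds the level itself.

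Psmd5 (chr2:34849734-34874968) was at 34.8, 33.0, 34.1 and 31.9 CPM at T0, 24.5, 28.3, 32.0 and 36.9 at T15 and 37.0, 36.2 and 29.0 at T30. It was at 17.3, 14.8, 19.8 and 12.2 CPM at T60, 10.7, 11.2 and 7.64 at T90 and 5.34, 16.8, 7.84 and 15 at T120. Every library from T60 on was below every earlier one. The log2 change at T120 was -1.57 ± 0.26 (edgeR adjusted p = 1.34e-05). After background subtraction it was -1.43 with adjusted p = 0.0759, and at T60 -0.56 with adjusted p = 0.557.

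Psmf1 (chr2:151715812-151744186) was at 25.4, 24, 28.8 and 24.4 CPM at T0, 22.4, 20.8, 19.2 and 31.4 at T15 and 28.1, 25.2 and 17.9 at T30. It was at 11.8, 11.5, 12.1 and 9.97 CPM at T60, 11.2, 9.31 and 9.8 at T90 and 8.54, 15, 9.11 and 11.4 at T120. The libraries from T60 on were all below the earlier ones and did not fall further. The log2 change at T120 was -1.22 ± 0.19 (edgeR adjusted p = 5.87e-06), and after background subtraction -0.73 with adjusted p = 0.381. Psmd9 had a log2 change of -0.4 ± 0.17 (adjusted p = 0.0356), which turned to 0.37 after background subtraction (adjusted p = 0.631) and also did not pass with DESeq2. The falls of these 3 genes thus did not pass the test once the background was subtracted, whereas that of Psma4 was -0.79 with adjusted p = 3.66e-05. Where the subtracted amount is a large part of the level, a lost call does not show that a gene was unchanged.

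The chaperones of 20S assembly were not called against T0 at any time. Psmg1 was at 16.3 ± 3.75 CPM at T0 and 13.3 ± 4.39 at T120, and Psmg4 at 25.2 ± 1.65 and 20.9 ± 3.31. The later assembly factor Pomp was at 38.4 ± 4.23 and 38.4 ± 6.31 CPM.

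**Figure D4:**
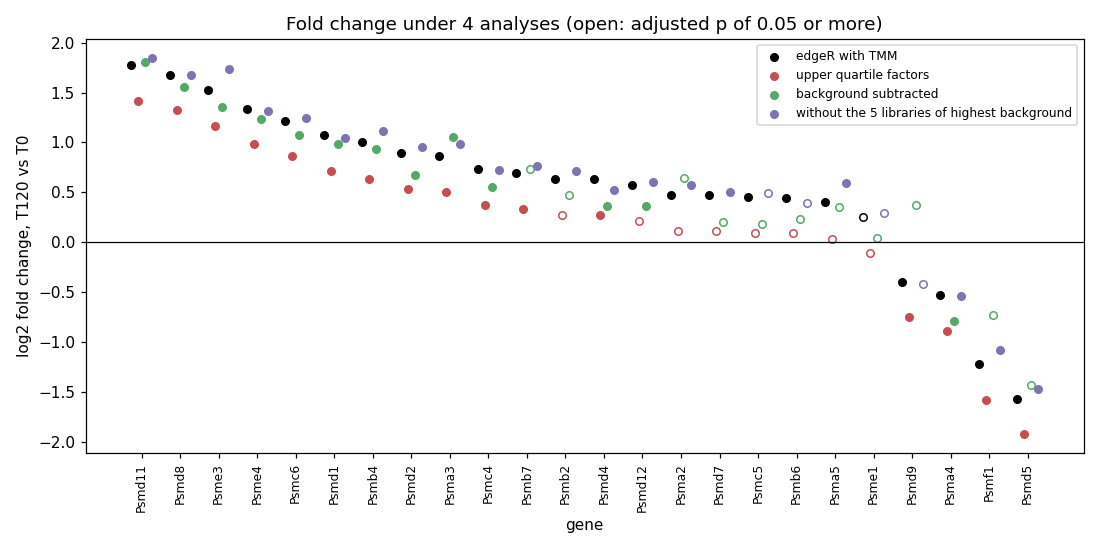
Points are the log2 fold change at T120 against T0 (vertical axis) of 24 genes (horizontal axis) under edgeR with TMM factors, with upper quartile factors, after subtracting the background and with the 5 libraries of highest background left out, and open points did not pass adjusted p under 0.05. Psmd11, Psmd8, Psme3, Psme4 and Psmc6 stay filled in all 4, while Psmd9 and Psme1 cross 0.

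For the median member the rise came in the second hour. Of the 6 highest risers at T120, Psmd11, Psme3 and Psmd1 rose more from T60 to T120 than from T0 to T60. Psmd8, Psme4 and Psmc6 rose less from T60 to T120 than from T0 to T60. From T60 to T120, 23 of 38 members were up (60.5%, against 28.4% of all genes) and 3 were down (7.89%, against 32%). The median member moved by 0.41 and the median gene by -0.06. The ranges of the T60 and T120 libraries did not overlap for 21 members that were higher and 3 that were lower (26.7% and 29.2% of all genes). The largest were Psmd11 (1.03 ± 0.08), Psme3 (0.97 ± 0.13), Psmd8 (0.81 ± 0.09) and Psmb3, and the 3 that fell were Psma4, Psme1 and Psmg4 (-0.43 ± 0.18, edgeR adjusted p = 0.0444), the last 2 of which were lost with DESeq2. Of the 23, 13 were called under all 31 alternatives. Background subtraction left 13 up and 1 down, beside 1528 up and 1670 down of 8051 genes.

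The step from T30 to T60 changed most with the libraries used. It had 15 members up (26.5% of all genes) and 4 down (24.5%), with a median of 0.18 against 0.01. Without library T30A 8 were up, without T30B 9, and without the 5 libraries of highest background density, which include both, 5 up and 0 down.

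Genes of the proteasome that lie outside the naming rule followed a mixed course. Of 12 listed, 7 were up and 3 down at T120, beside 37.3% of all genes up and 39.5% down. Adrm1, a ubiquitin receptor of the 19S base, rose from 18.3 ± 1.02 to 51.2 ± 5.08 CPM (log2 change 1.49 ± 0.14, edgeR adjusted p = 7.08e-09). Zfand5, a zinc finger protein that stimulates the proteasome, rose from 49.7 ± 6.32 to 425 ± 64.5 CPM (3.09 ± 0.16, adjusted p = 1.51e-12). Akirin2, which carries proteasomes into the nucleus, rose by 0.95 ± 0.2, and AI314180, the older symbol of the adaptor and scaffold Ecm29, by 0.93 ± 0.1. Fam192a, a partner of the protein of Psme3, and Uchl5, a deubiquitinase bound to Adrm1, were down (log2 change -0.55 ± 0.17 and -0.61 ± 0.16). The 12-member list had 6 to 7 genes up and 1 to 4 down over the 31 alternatives.

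Among 10 genes that control proteasome gene transcription, 6 were up and 2 down at T120, beside 37.3% of all genes up and 39.5% down. Nfe2l1 rose from 101 ± 8.34 to 201 ± 5.74 CPM (log2 change 0.98 ± 0.09, edgeR adjusted p = 5.16e-09) and Nfe2l2 from 76.1 ± 5.39 to 181 ± 36.6 (1.25 ± 0.14, adjusted p = 7.49e-08). Their small Maf partners rose more, Mafk by 2.94 ± 0.18 and Maff by 3.24 ± 0.28, and Bach1, a repressor at the same elements, by 1.97 ± 0.11. Ngly1, the deglycosylase that activates the Nfe2l1 protein, went from 33.5 ± 2.8 to 7.62 ± 1.78 CPM (log2 change -2.12 ± 0.18, adjusted p = 9.68e-10). These 10 genes were chosen with results of these data known.

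Most listed genes of ubiquitin and its conjugating enzymes were up at T120. Of 19 genes 17 were up and 1 down, beside 37.3% of all genes up and 39.5% down, and the list was chosen with earlier results of these data known. The conjugating enzyme gene Ube2d3 rose from 163 ± 8.89 to 812 ± 125 CPM (2.32 ± 0.13, edgeR adjusted p = 2.49e-12) and Ube2k from 56.1 ± 3.1 to 179 ± 20.5 (1.67 ± 0.12). Ube2d1 was the exception (log2 change -1.84 ± 0.15). Under the alternatives 12 to 18 of these genes were up. Genes of the Ube2d family have near-identical coding parts, so how reads were divided among them is uncertain. Of 13 genes of the p97 unfoldase and shuttle factors 7 were up and 2 down, among them Vcp (0.77 ± 0.1), Rad23b (1.63 ± 0.11) and, downwards, Faf2 (log2 change -1.12 ± 0.1). Of 10 interferon and antigen presentation genes 5 were up and 2 down. In this list Irf1 rose most at T60 (3.2 ± 0.31) and B2m rose from 48.6 ± 11.1 to 147 ± 34.8 CPM at T120.

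The genes closest in pattern to the mean of the 30 core and 19S subunits over the 22 libraries were the chaperonin subunits Cct8 (Pearson r = 0.972) and Cct5 (0.958), Ranbp1 (0.971), the asparaginyl-tRNA synthetase Nars (0.964) and Dlst (0.959). The points share libraries, depth and the step between early and late times, so these values only describe. Within the family r with that mean ran from 0.98 for Psmd2 and 0.96 for Psmb7 to -0.68 for Psmf1 and -0.69 for Psmd5.

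Some markers of other cell types changed at T120, where 37.3% of all genes were up against T0 and 39.5% down. The summed level of the 6 listed endothelial markers ran from 170.5 to 284 CPM over the T0 libraries, from 131 to 191 at T60 and from 329 to 621 at T120, and 5 of the 6 were up at T120. Summed smooth muscle and pericyte markers ran from 901 to 1072 CPM at T0 and from 939.9 to 1230.3 at T120. Of the 6 genes, Rgs5 (3.36 ± 0.36) and Myh11 (2.21 ± 0.55) were up at T120, also under all 31 alternatives, and Notch3 was down (log2 change -0.33 ± 0.14). Summed fibro-adipogenic markers ran from 1753 to 2925 CPM at T0 and from 1888 to 2256 at T120, with Dcn (1.63 ± 0.51) and Col1a1 (0.92 ± 0.27) of the 6 up and 0 down. Myofibre markers ran from 603 to 783 and from 308 to 522, with Acta1 (2.13 ± 0.47) and Tnnt3 (0.99 ± 0.34) of the 7 up and 4 down. Of the 10 satellite cell markers 3 were up and 5 down at T120. The part of these markers in the proteasome result at T120 was not tested.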

How the data were processed

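Bulk RNA-seq of muscle stem cells at 6 times was analysed in 22 libraries. The other 9 of 15 samples in the labels, of single cells and nuclei, were not analysed here. Per the labels' protocols, RNA was extracted with a kit for fixed samples, turned into strand-specific libraries of total RNA from low input, and read as 65-base single reads. The authors deposited whole-number counts per gene, per the file headers. The deposited table also holds a score (each count over a size factor of its library, rounded; the factors were recovered from it), and log2 fold changes with adjusted p-values by the authors, per the file headers. Per the submitters' processing notes the build is mm10 and the tools named are DESeq2 1.18.1, featureCounts 1.4.5-p3 and cutadapt 1.11, among others. The sources used here do not give the aligner, annotation release or strand setting. The lowest mean normalized count the authors list is 98.4, so weakly expressed genes are outside the table, and totals are over listed genes and not depth. Of the library columns 0 were unmatched.

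The tests used edgeR 4.0.16 (R 4.3.3) on the counts (quasi-likelihood F test, TMM factors, filterByExpr, which kept all 8059 genes, 1 fit over 22 libraries with time as a factor, common biological coefficient of variation 0.192). P-values were adjusted by Benjamini-Hochberg over all genes and called under 0.05. The SE was computed as the absolute log2 fold change divided by the root of F. Exon lengths and positions are from GENCODE vM21, and lengths are unions over transcripts, which overstate some genes. Background subtraction removed from each count the density of 8 long genes times the gene's exon length, and kept 8051 genes. Alternatives were DESeq2 1.42.0, limma-voom (limma 3.58.1), the authors' size factors, upper quartile factors, no filter, a replicate block, background subtraction, fewer libraries and each library left out. The edgeR scripts were tested on simulated data. Values in every library are given for the listed catalytic subunits and PA28 and PA200 genes and for the 6 highest and 3 lowest changes at T120, and other lists were fixed by name. Members and lists were chosen with earlier results of these data known.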

Additional observations from a re-analysis of the deposited data

Results flagged for a closer look

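Among the 12 genes with values in every library, 48 groups of 4 libraries were examined for a library far from the other 3, and about 1 in 20 would stand out by chance. In 4 groups 1 library did. Psme1 was at 76.7 CPM in T60C, above the others of T60, and Psme4 at 180.3 CPM in T60C, below them. Psmd11 was at 244 CPM in T120D, above the others of T120. Psma4 was at 65.4 CPM in T0C, below the others of T0, and still above all T120 libraries.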

How the results depend on the processing

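The calls at T60, T90 and T120 depended on scaling and on the background. The counts over all genes moved with these settings as well, as given above. Counts of members up and down with upper quartile factors were 5 and 18 at T60, 7 and 17 at T90, 12 and 11 at T120, and 5 up from T30 to T60. After background subtraction they were 1 and 0 at T30, 4 up at T60, 7 up at T90, 12 up at T120, 5 up from T30 to T60, and 13 and 1 from T60 to T120. Without the 5 libraries of highest background 3 were down at T60, and from T30 to T60 5 were up and 0 down. With only the 2 groups compared 8 were down at T60. The single T30 call became 0 with DESeq2, limma-voom, the authors' size factors, the replicate block, the 5 libraries left out and the 2 groups. From T60 to T120 1 was down with DESeq2 and with the authors' factors. The causes were not tested.

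Leaving out each library in turn gave 0 to 3 down at T30, 7 to 9 up and 4 to 9 down at T60, 12 to 15 up and 4 to 6 down at T90, and 17 to 21 up and 3 to 6 down at T120. It gave 8 to 16 up and 3 to 4 down from T30 to T60, and 19 to 24 up and 0 to 3 down from T60 to T120. The joint test called 27 to 34. Members down at T60 numbered 9 without T30A and 8 without T30C, members down at T30 numbered 3 without T30C, and members down from T60 to T120 numbered 0 without T60B, T60C or T120A.

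For single members, 109 fold changes were refitted: 3075 of 3379 values kept direction and call, 271 lost the call, 17 gained it and 16 changed sign. With upper quartile factors the sign changed for Psmb6 (-0.01) and Psmb7 (-0.15) at T60, and for Psme1 at T90 (-0.02) and T120 (-0.11). After background subtraction it changed for Psmb6 at T60 (-0.02), Psmd9 at T60 (0.32) and T120 (0.37), and, from T30 to T60, for Psmd4 (-0.20), Psmd12 (-0.15), Psmd5 (0.67), Psmd9 (0.70) and Psmf1 (1.35). For Psmd5, Psmd9 and Psmf1 the estimated background was 89.1%, 86.7% and 114.0% of the T30 level. Leaving out 1 library turned Psma4 at T60 to 0.00 (T60A), and Psmf1 from T60 to T120 to 0.01 (T60C), 0.08 (T120A) and 0.03 (T120C).

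The letters were not treated as a pairing, since not every same-letter pair had a correlation of deviations over 0.1. Of 51 such pairs 26 did (range -0.57 to 0.47), and 10 of 22 libraries correlated best with their own letter. With the letter as a replicate block 8 members were up and 7 down at T60, 16 and 5 at T90, and 20 and 5 at T120. Precision is limited by 3 or 4 libraries a time, and by the background for members of low level per kb.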
